A study of Mus musculus with 10 samples.

Results

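The loci of 5 neurogenic transcription factors, Pax6, Neurod1, Tbr1, Neurod2 and Lhx2, were examined for DNA methylation in mouse brain. The members are these genes, measured by all non-control probes of a CpG island array whose position on the mouse build mm9 fell in a fixed window around each gene, 108 of 88737 probes in all. Pax6 had 34 probes, Neurod1 8, Tbr1 22, Neurod2 21 and Lhx2 23. Probes were assigned to the windows by position alone, but the 5 loci were chosen with earlier results of these data known. Probes whose starts lay at most 500 bp apart were joined into clusters of at least 3 probes, which gave 17 of the array's 13835 clusters: 5 at Pax6, 2 at Neurod1, 3 at Tbr1, 2 at Neurod2 and 5 at Lhx2. The clusters are numbered by position within a locus, and 1 Neurod2 probe, at chr11:98190819-98190863, lay in none.

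These factors act in order as a neuron is made in the forebrain. Lhx2, a LIM-homeodomain factor, sets cortical identity and maintains progenitors, and Pax6, a paired-domain factor of radial glia, drives progenitors towards neurons. Neurod1 and Neurod2 are basic helix-loop-helix factors that push committed cells through differentiation, Neurod2 remaining active in excitatory neurons, and Tbr1 is a T-box factor of early-born glutamatergic neurons. Genes of this kind often carry CpG islands, stretches of DNA dense in CpG that are mostly free of methylation at active promoters and can be methylated in part elsewhere.

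The tissue was the left hemibrain of male mice of the inbred strain C57BL/6j. From an age of 3 weeks the mice ate for 24 weeks 1 of 3 diets of equal calories, set apart by how much n-3 they held for each part of n-6 polyunsaturated fatty acid. The n-3 enriched diet (ERD) had a ratio of 7:1 and was measured on 4 arrays. The balanced diet (BLD), at 1:1, and the standard laboratory diet (STD), at 1:6, had 3 arrays each, and STD served as the control. No group carried a transgene or a drug, and the word CONTROL stands in the titles of all 3 diets. The question was whether the fatty acid ratio goes with a change in brain methylation. The labels do not say that each array was a separate animal, so every p-value measures the spread between these samples, which may be technical. In a whole hemibrain a different share of a cell type and a different methylation level per cell cannot be told apart.

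Methylated DNA was pulled down with an antibody and labelled with Cy5, and total DNA of the same sample was labelled with Cy3 (MeDIP-chip). The value of a probe is the log2 ratio of Cy5 to Cy3 minus the median of its array, so 0 is the median probe of that array and not zero methylation. Both channels were well above background in 84.1% of the 1080 member spots and in 86.7% of all spots. Among member probes, 58 of 108 (53.7%) were well above background on all 10 arrays, against 58.5% of all probes, and 13 were so on no array of at least 1 diet. The interquartile range of the log2 ratio, which is the width of an array's whole distribution, was 0.61 to 0.79 in ERD, 0.38 to 0.74 in BLD and 0.38 to 0.53 in STD. The share of all probes well above background was 84.1% to 94.7% in ERD, 88.0% to 90.5% in BLD and 76.4% to 89.2% in STD. Every ERD array was thus wider than every STD array, while the widths of BLD overlapped those of both other diets and the shares well above background overlapped in all 3. The part of array width and signal in the differences below was not tested. Most slides held a single diet, and only 1 slide held 2 diets, with BLD replicate 3 and STD replicate 1.

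The antibody pulls down methylated DNA, and the number of CpG dinucleotides in a stretch bears on how much methylation that stretch can hold. RefSeq start regions of all 5 genes were matched in the build GRCm38.p6, with 7 start sites in all, and the 250 bases before each start were searched for CG, a motif that reads the same on both strands. Of 32851 such windows in the genome 92.1% held at least 1 CG, with a median of 6 per window. Lhx2 had 25 and 24 at its 2 starts, Neurod1 22, Pax6 15 at each of 2 starts, Neurod2 11 and Tbr1 5. Lhx2 thus had more than 89.3% of all windows at its first start, while Tbr1 had more than 44.4% of them. Shown here are the window with the most CpG, the window with the fewest, and that of Neurod2, the locus of the cluster with the lowest p below, 5′ to 3′ on the gene's strand with every CG in capitals. They lie at chr2:38339031-38339280 on the plus strand for Lhx2, chr2:61804203-61804452 on the plus strand for Tbr1 and chr11:98329646-98329895 on the minus strand for Neurod2. The array positions are on another build and were not converted, so no probe is placed on these sequences.
Lhx2: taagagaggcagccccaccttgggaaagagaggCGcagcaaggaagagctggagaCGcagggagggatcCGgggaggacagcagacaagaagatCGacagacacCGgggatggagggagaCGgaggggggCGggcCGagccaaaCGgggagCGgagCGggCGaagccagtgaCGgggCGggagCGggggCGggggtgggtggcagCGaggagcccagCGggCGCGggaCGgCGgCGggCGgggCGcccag
Tbr1: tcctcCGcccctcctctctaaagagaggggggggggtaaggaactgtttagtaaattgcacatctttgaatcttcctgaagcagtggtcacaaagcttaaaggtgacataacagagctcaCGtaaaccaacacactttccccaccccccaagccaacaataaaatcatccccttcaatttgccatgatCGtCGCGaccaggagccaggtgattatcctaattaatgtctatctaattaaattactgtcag
Neurod2: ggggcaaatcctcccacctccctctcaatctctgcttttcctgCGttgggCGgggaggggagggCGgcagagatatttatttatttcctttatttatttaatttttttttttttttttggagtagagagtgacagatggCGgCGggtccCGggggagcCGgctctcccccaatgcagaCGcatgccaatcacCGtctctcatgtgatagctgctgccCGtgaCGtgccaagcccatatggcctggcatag
The GC content of these windows was 72.8% for Lhx2, 45.2% for Tbr1 and 52.8% for Neurod2, so their order by GC content was that by CpG number. That did not hold for all 7 windows, since the second Pax6 start had 15 CpG at a GC content of 47.6%, and Neurod2 had 11 CpG.

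No mm9 gene annotation was used here, so exon, intron and UTR are not given for any probe. In the RefSeq gene table of GRCm38 the antisense RNA gene Pax6os1 and the protein-coding gene Elp4 overlap Pax6, and the non-coding genes Gm27197 and Gm13584 overlap Lhx2. A cluster in those windows can therefore belong to more than the named factor. The next genes on either side are Paupar and Immp1l for Pax6, Gm46736 and Gm39799 for Lhx2, and Cerkl and Gm39867 for Neurod1. For Tbr1 they are Psmd14 and Gm39837, and for Neurod2 Gm31317 and Gm33099.

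Within every locus, probes lay on both sides of the array median. Pax6 had 24 of 34 probes with a mean above it, Neurod1 6 of 8, Tbr1 12 of 22, Neurod2 8 of 21 and Lhx2 10 of 23. The probe means ran from -0.31 to 0.90 at Pax6, from -0.17 to 0.35 at Neurod1, from -0.81 to 0.56 at Tbr1, from -0.55 to 0.35 at Neurod2 and from -0.75 to 0.55 at Lhx2. Of the 108 probes, 4 were above the median on all 10 arrays and 4 were below it on all 10. The matching share of all probes was not taken, so these counts are not read as high or low. Of the 4 below it, 2 lay at Lhx2 and 2 in the first Tbr1 cluster, at chr2:61643504-61643548 and chr2:61643664-61643708. These Tbr1 probes had means of -0.69 and -0.81, and both were well above background on all 10 arrays. The probe between them, at chr2:61643594-61643641, had a mean of 0.56 and was above the median on 8 arrays.

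**Figure D1:**
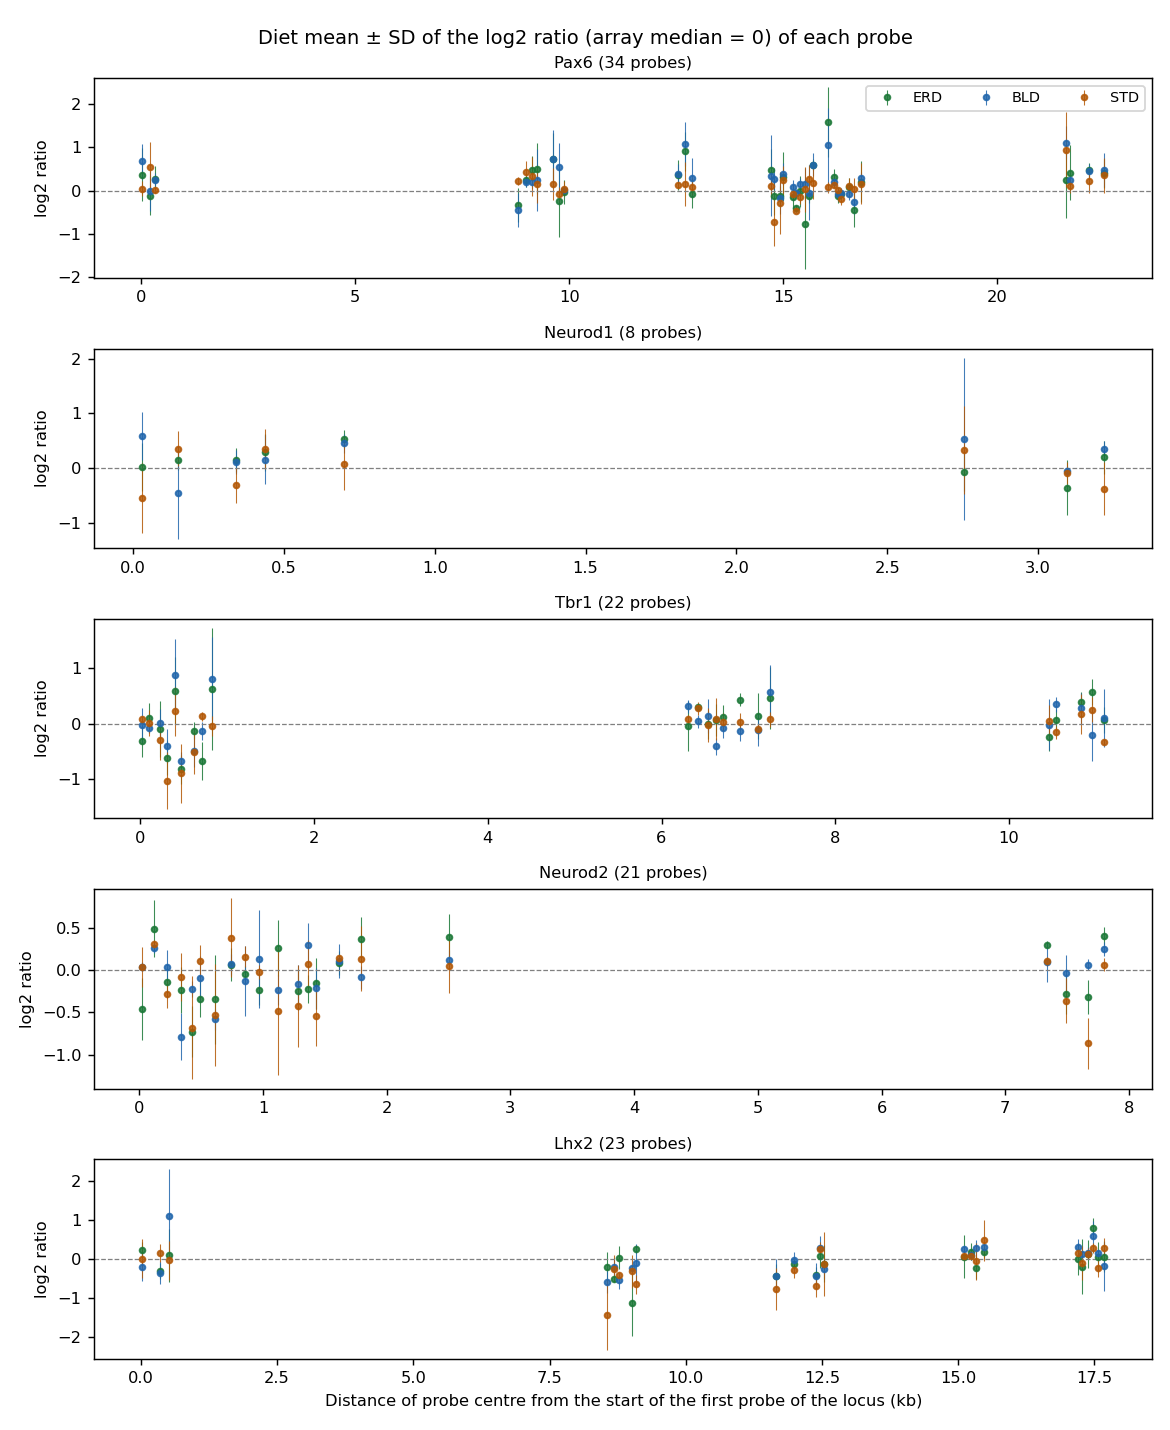
Mean and SD of the log2 ratio (array median = 0) of each probe in each diet, against the distance in kb from the first probe of its locus, for ERD (4 arrays), BLD (3) and STD (3). Probes of all 3 diets lay on both sides of 0 at each locus, and the means of single Pax6 probes in a diet ran from -0.77 to 1.59.

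Averaged over its probes, the Pax6 locus was above the array median on all 10 arrays. Its values were 0.053, 0.31, 0.16 and 0.17 in ERD, 0.28, 0.40 and 0.13 in BLD, and 0.024, 0.17 and 0.10 in STD. The ranges of the 3 diets overlapped. The Neurod2 locus was below the median on all 10 arrays, at -0.075, -0.099, -0.036 and -0.060 in ERD, at -0.089, -0.054 and -0.015 in BLD, and at -0.053, -0.24 and -0.099 in STD. The diets overlapped there as well, with STD replicate 2 the lowest array. The Tbr1 locus had values of -0.018, 0.22, -0.069 and 0.041 in ERD, 0.054, 0.067 and -0.029 in BLD, and -0.093, -0.11 and -0.063 in STD. Every STD array of Tbr1 lay below every BLD array, while ERD replicate 3 fell inside the STD range. The Lhx2 locus had -0.22, 0.11, -0.17 and 0.0063 in ERD, 0.090, -0.034 and -0.056 in BLD, and -0.16, -0.13 and -0.15 in STD. Here too STD lay below BLD on every array, and ERD held both the lowest and the highest array. The Neurod1 locus had 0.12, 0.13, 0.042 and 0.14 in ERD, -0.045, 0.62 and 0.035 in BLD, and -0.16, 0.13 and -0.055 in STD. BLD replicate 2 stood far above all others, on the 8 probes of the smallest locus. Among single clusters of the array, 17.4% did not overlap between BLD and STD, and no such share was taken for locus means. These means are descriptions without a test.

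Lhx2, the factor of cortical identity, had the cluster that was below the array median on every array. Lhx2 cluster 2 (chr2:38203488-38204078, 5 probes) had values of -0.52, -0.084, -0.58 and -0.057 in ERD, -0.40, -0.13 and -0.49 in BLD, and -0.75, -0.76 and -0.36 in STD. It was the only member cluster of 17 with all 10 arrays below 0, against 16.0% of all clusters. The STD range overlapped those of both other diets. Lhx2 cluster 1 (chr2:38194964-38195510, 3 probes) had a mean of 0.0066 in ERD with an SD of 0.25 over 4 arrays, while BLD had 0.18 ± 0.27 and STD 0.038 ± 0.27, each over 3 arrays. Lhx2 cluster 3 (chr2:38206600-38207518, 5 probes) was below the median on 9 of 10 arrays, with means of -0.21 ± 0.16 in ERD, -0.18 ± 0.29 in BLD and -0.33 ± 0.26 in STD (SD). The clusters at the higher coordinates lay above it, cluster 4 (chr2:38210043-38210461, 4 probes) on 9 arrays and cluster 5 (chr2:38212141-38212667, the Lhx2 cluster with the most probes, 6) on 7. The Lhx2 locus thus held neighbouring clusters on opposite sides of the median.

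Pax6, the factor of radial glia, had the only member cluster above the median on all 10 arrays, against 8.27% of all clusters. This was Pax6 cluster 5 (chr2:105521667-105522627, 4 probes), with 0.16, 1.01, 0.20 and 0.18 in ERD, 0.60, 0.60 and 0.51 in BLD, and 0.30, 0.64 and 0.29 in STD. ERD replicate 2 was far above the other ERD arrays. Pax6 cluster 3 (chr2:105512616-105512987, 3 probes) had -0.019, 0.77, 0.54 and 0.31 in ERD, 0.93, 0.48 and 0.37 in BLD, and -0.019, 0.22 and 0.19 in STD. All BLD arrays were above all STD arrays, and ERD spanned nearly the whole range. Pax6 cluster 4 (chr2:105514783-105516942), the member cluster with the most probes (17), had -0.12, 0.12, 0.11 and 0.17 in ERD, 0.17, 0.27 and 0.048 in BLD, and -0.12, 0.027 and -0.0051 in STD. BLD again lay above STD without overlap, while ERD replicate 1 was as low as the lowest STD array. Pax6 clusters 1 (chr2:105500096-105500460, 3 probes) and 2 (chr2:105508873-105510003, 7 probes) were above the median on 9 arrays each, with overlapping diets.

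Neurod1, which acts as progenitors commit to a neuronal fate, had the fewest probes and the weakest signal, with 61.3% of its spots well above background. Neurod1 cluster 1 (chr2:79293970-79294691, 5 probes) had 0.37, 0.22, 0.050 and 0.26 in ERD, -0.034, 0.47 and 0.058 in BLD, and -0.22, 0.12 and 0.046 in STD. All 4 ERD arrays were above 0, and the diets overlapped. Neurod1 cluster 2 (chr2:79296695-79297212, 3 probes) had -0.29, -0.0017, 0.028 and -0.064 in ERD, -0.062, 0.87 and -0.0025 in BLD, and -0.060, 0.15 and -0.22 in STD. BLD replicate 2 alone set the BLD mean of 0.27 ± 0.52 (SD, n = 3).

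Neurod2, the factor that stays active in excitatory neurons, had a long and a short cluster 5496 bp apart. Neurod2 cluster 1 (chr11:98188339-98190155, 16 probes) was below the median on 9 of 10 arrays, and the mean of the 4 ERD arrays was -0.12 with an SD of 0.027, beside -0.099 ± 0.067 for BLD and -0.11 ± 0.13 for STD. Neurod2 cluster 2 (chr11:98195652-98196162, 4 probes in 511 bp) had 0.0052, 0.020, 0.0055 and 0.066 in ERD, 0.19, -0.0078 and 0.091 in BLD, and -0.37, -0.22 and -0.20 in STD. Every STD array was below every array of the other diets, and ERD lay within the BLD range. The ERD mean was 0.024 ± 0.029, the BLD mean 0.091 ± 0.098 and the STD mean -0.26 ± 0.095, with SDs over 4, 3 and 3 arrays. Of its spots 97.5% were well above background, and its spread within diets, a pooled SD of 0.075, was smaller than that of all but 4.17% of clusters. Whether this cluster lies in Neurod2 or in flanking DNA is not given here.

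Tbr1, which marks early-born neurons, had clusters on either side of the median. Tbr1 cluster 1 (chr2:61643215-61644071, 9 probes) had -0.29, 0.060, -0.25 and -0.12 in ERD, 0.092, -0.0038 and -0.13 in BLD, and -0.41, -0.26 and -0.12 in STD. It was below the median on 8 arrays, and the diets overlapped. Tbr1 cluster 2 (chr2:61649496-61650484, 8 probes) had 0.15, 0.37, -0.026 and 0.22 in ERD, 0.068, 0.044 and 0.0071 in BLD, and 0.089, 0.062 and 0.016 in STD. Here 3 of the 4 ERD arrays were above every array of the other diets, and ERD replicate 3 was below all of them. Tbr1 cluster 3 (chr2:61653654-61654333, 5 probes) had 0.20, 0.25, 0.19 and 0.033 in ERD, -0.034, 0.23 and 0.10 in BLD, and 0.18, -0.11 and -0.087 in STD, with overlapping diets.

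**Figure D2:**
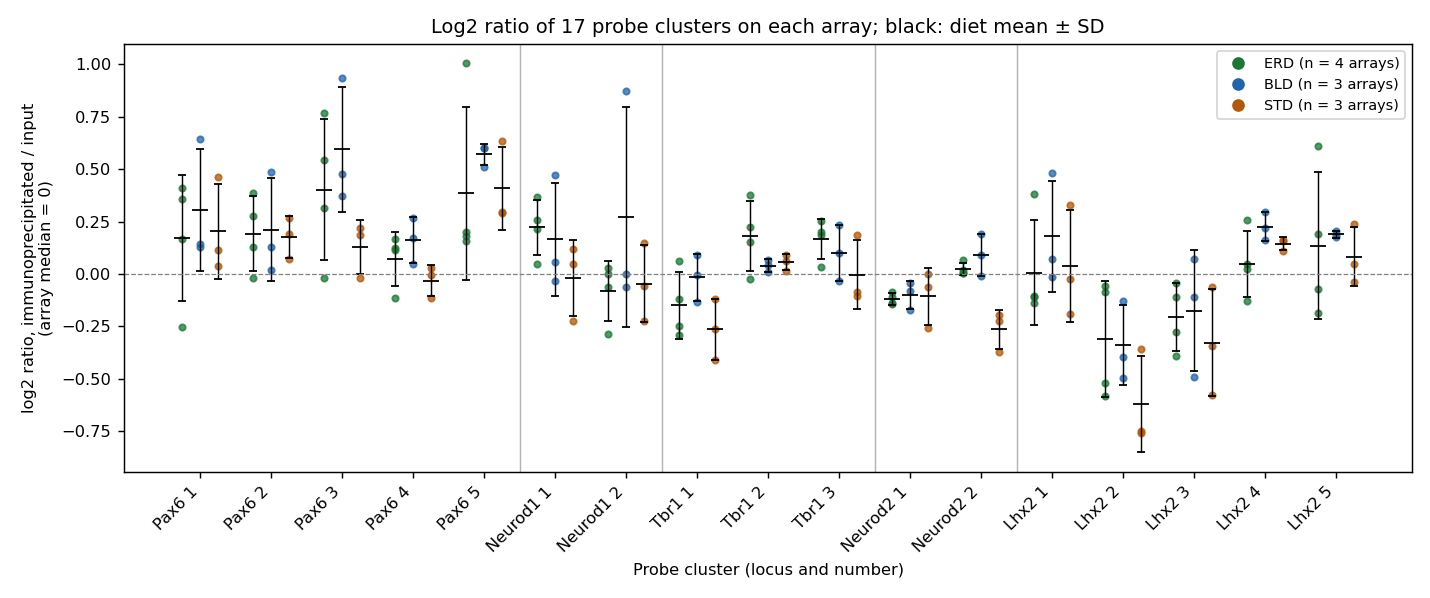
Log2 ratio (array median = 0) of each of the 17 clusters on each array, coloured by diet, with the diet mean and SD as black bars. At Neurod2 cluster 2 the 3 STD arrays sit between -0.37 and -0.20, below all ERD and BLD arrays, while Pax6 cluster 5 is above 0 and Lhx2 cluster 2 below 0 on all 10.

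Against the standard diet, no cluster at the neurogenic loci differed in the enriched diet after adjustment. In the limma fit over all clusters with Benjamini-Hochberg adjustment, 0 of 17 passed an adjusted p of 0.05, as did 0% of all clusters. At an unadjusted p of 0.05, 1 of 17 (5.88%) passed, against 15.7% of all clusters, and this was Neurod2 cluster 2. It was also the only cluster whose ERD and STD arrays did not overlap, 1 of 17 against 16.2% of all clusters. The difference at Neurod2 cluster 2 was 0.29 ± 0.088 (SE; 95% interval 0.097 to 0.48), a ratio 1.22-fold higher in ERD, with an unadjusted p of 0.0067 and an adjusted p of 0.193. Over the alternatives of processing its adjusted p lay between 0.127 and 0.564. Of the 17 clusters, 11 had a difference above 0, against 50.6% of all clusters, with a median of 0.10 beside 0.0033 for all. With normexp background correction 11 of 17 were again above 0, but so were 64.5% of all clusters, and the median was 0.023 beside 0.057 for all. The lowest p at Pax6 was that of cluster 3, with a difference of 0.27 ± 0.18 (SE; adjusted p 0.469). At Lhx2 it was cluster 2, with 0.31 ± 0.16 (SE; adjusted p 0.368), at Neurod1 cluster 1, with 0.24 ± 0.14 (SE; adjusted p 0.402), and at Tbr1 cluster 3, with 0.17 ± 0.11 (SE; adjusted p 0.445). Each of these 4 intervals included 0. The Pax6 difference turned to -0.017 with normexp background correction, with which that of Tbr1 was 0.012. That of Lhx2 was 0.039 with only the probes well above background on every array, and that of Neurod1 was 0.0053 with the median of the probes in place of the mean.

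For the balanced against the standard diet, 0 of 17 clusters were past an adjusted p of 0.05 in limma, as were 0% of all clusters. At an unadjusted p of 0.05, 2 of 17 (11.8%) passed, beside 11.2% of all clusters, and 3 of 17 (17.6%) did not overlap between the diets, beside 17.4%. Both shares were near the background. Neurod2 cluster 2 had a difference of 0.36 ± 0.094 (SE; 95% interval 0.15 to 0.56), with an unadjusted p of 0.0027 and an adjusted p of 0.440. On the slide that held both diets the difference was 0.46. It was 0.083 with normexp background correction and 0.16 with only the probes well above background on every array. Pax6 cluster 3 had a difference of 0.47 ± 0.19 (SE; 95% interval 0.044 to 0.89; adjusted p 0.440), 0.39 on the shared slide and -0.033 with normexp correction. Pax6 cluster 4 did not overlap between BLD and STD either, with 0.19 ± 0.11 (SE; adjusted p 0.496). The lowest p at the other loci belonged to Tbr1 cluster 1, with 0.25 ± 0.12 (SE; adjusted p 0.459), Lhx2 cluster 2, with 0.28 ± 0.17 (SE; adjusted p 0.520), and Neurod1 cluster 2, with 0.32 ± 0.21 (SE; adjusted p 0.551). Without BLD replicate 2 the Neurod1 difference was 0.014, and with normexp correction the Neurod1 and Tbr1 differences were -0.39 and -0.014.

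Fewer clusters had a difference above 0 between BLD and STD with the normexp alternative than with the processed signals. That alternative also used the median spot signals with an offset, in place of the processed signals with their balanced dyes. Background correction was not varied alone, so its part in this change was not tested. With the deposited processed signals, 16 of 17 clusters had a difference above 0, against 56.7% of all clusters, and the median was 0.15 beside 0.030. With normexp correction of the median spot signals, 6 of 17 were above 0, against 45.9% of all clusters, and the median was -0.014 beside -0.012 for all. On the slide that held BLD replicate 3 and STD replicate 1, 12 of 17 clusters were above 0, against 53.8% of all clusters, with a median of 0.13 beside 0.017. Leaving out 1 array at a time left 13 to 17 of the 17 above 0, against 53.4% to 61.0% of all clusters.

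Between the enriched and the balanced diet, 0 of 17 clusters passed an adjusted p of 0.05, in limma, as did 0% of all clusters, and 0 of 17 passed an unadjusted p of 0.05, against 10.2% of all clusters. No cluster was without overlap, against 10.1% of all. Of the 17, 4 had a difference above 0, against 43.6% of all clusters, with a median of -0.066 beside -0.026. With normexp correction 16 of 17 were above 0, against 78.1% of all, with a median of 0.037 beside 0.060. The lowest p was at Neurod1 cluster 2, with -0.35 ± 0.20 (SE; adjusted p 0.564), and it was 0.034 with normexp correction and -0.049 without BLD replicate 2. Lhx2 cluster 4 had -0.18 ± 0.10 (SE; adjusted p 0.568), Tbr1 cluster 2 had 0.14 ± 0.10 (SE; adjusted p 0.652), Pax6 cluster 3 had -0.19 ± 0.18 (SE; adjusted p 0.752) and Neurod2 cluster 2 had -0.066 ± 0.088 (SE; adjusted p 0.837). With normexp correction those of Lhx2, Pax6 and Neurod2 were 0.0060, 0.016 and 0.29. Without BLD replicate 1 those of Pax6 and Neurod2 were -0.022 and -0.017.

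**Figure D3:**
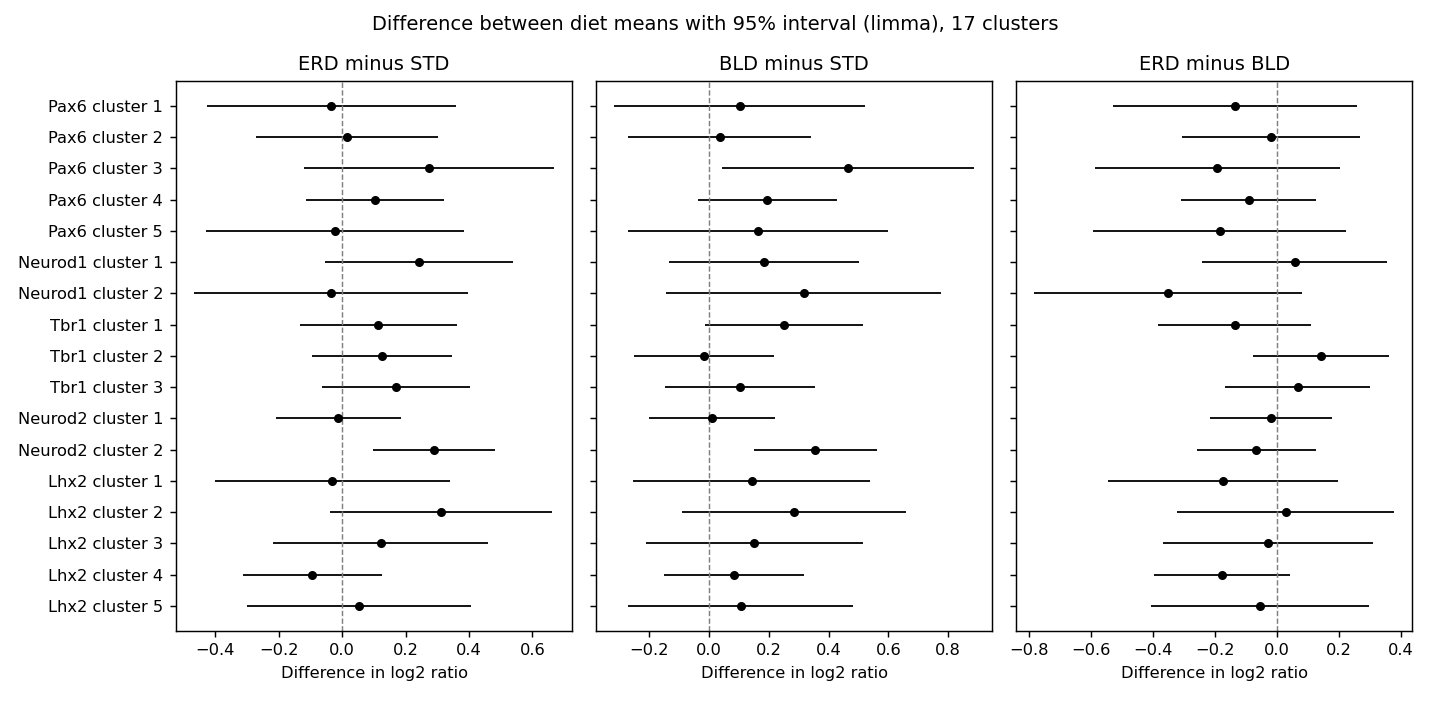
Difference in log2 ratio between diet means with its 95% interval from limma, for each of the 17 clusters in ERD minus STD, BLD minus STD and ERD minus BLD. The interval excludes 0 at Neurod2 cluster 2 in the first (0.097 to 0.48), and at Neurod2 cluster 2 (0.15 to 0.56) and Pax6 cluster 3 (0.044 to 0.89) in the second, none of which passed adjustment, and with normexp correction the second set turned sign at Pax6 cluster 3.

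A fit on the log2 of the n-3 to n-6 ratio asked for an even change across the 3 diets. Over the array 6 of 13835 clusters (0.0434%) passed an adjusted p of 0.05, and none of the 17 was among them. At an unadjusted p of 0.05, 1 of 17 (5.88%) passed, against 15% of all clusters. This was again Neurod2 cluster 2, with a slope of 0.049 ± 0.020 (SE) per doubling of the ratio, an unadjusted p of 0.030 and an adjusted p of 0.285. Its 3 diet means did not rise evenly, since ERD lay between STD and BLD. Lhx2 cluster 2 had a slope of 0.055 ± 0.030 (SE; adjusted p 0.402), Neurod1 cluster 1 0.044 ± 0.025 (SE; adjusted p 0.423), Tbr1 cluster 3 0.031 ± 0.019 (SE; adjusted p 0.456) and Pax6 cluster 3 0.044 ± 0.037 (SE; adjusted p 0.598). The comparisons share arrays, since STD serves both of the first and all 10 arrays enter the trend, so they are not separate evidence.

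Tested as single probes, none of the 108 passed an adjusted p of 0.05 in limma in any of the 4 fits, nor did any other probe of the array (0%). At an unadjusted p of 0.05, 16 (14.8%) passed in ERD against STD, beside 15% of all probes. Of these 11 were higher in ERD and 5 lower, while 6.55% of all probes passed as higher and 8.49% as lower. In BLD against STD 12 (11.1%) passed, beside 10.5%, in ERD against BLD 9 (8.33%), beside 11.7%, and in the trend 11 (10.2%), beside 14.6%. By locus, the 16 of the first comparison were 3 of 34 at Pax6, 2 of 8 at Neurod1, 2 of 22 at Tbr1, 4 of 21 at Neurod2 and 5 of 23 at Lhx2. Among probes with a value on every array compared, ERD and STD did not overlap at 15 of 107 members (14%), beside 16.4% of all probes. For BLD and STD it was 17 of 107 (15.9%), beside 16.6%, and for ERD and BLD 13 of 108 (12%), beside 11.5%. Probes of a locus share the same DNA fragments and are not replicates.

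The difference at Neurod2 cluster 2 came from unlike probes. The first, at chr11:98195652-98195696, had means of 0.30 ± 0.042 in ERD, 0.091 ± 0.23 in BLD and 0.10 ± 0.049 in STD (SD). The second, at chr11:98195804-98195848, had -0.28 ± 0.23 in ERD, -0.037 ± 0.21 in BLD and -0.36 ± 0.26 in STD (SD), with overlapping diets. The third stood out in STD. At chr11:98195984-98196028 it had -0.40, -0.067, -0.55 and -0.27 in ERD, 0.062, 0.13 and -0.0031 in BLD, and -1.20, -0.61 and -0.79 in STD, so that the diets did not overlap. It was well above background on 9 of 10 arrays, the exception being in STD. Its difference between BLD and STD was 0.93 ± 0.21 (SE; adjusted p 0.464), the lowest p among Neurod2 probes, and -0.035 with normexp correction. The fourth, at chr11:98196117-98196162, had 0.40 ± 0.11 in ERD, 0.24 ± 0.082 in BLD and 0.063 ± 0.078 in STD (SD), and STD again lay below both other diets without overlap. Split by channel and centred on the array median of that channel, the log2 signal of the cluster was 1.52 ± 0.20 in ERD, 1.46 ± 0.22 in BLD and 1.00 ± 0.35 in STD for immunoprecipitated DNA. For input DNA it was 1.34 ± 0.13, 1.26 ± 0.16 and 1.19 ± 0.33 in the same order (SD).

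**Figure D4:**
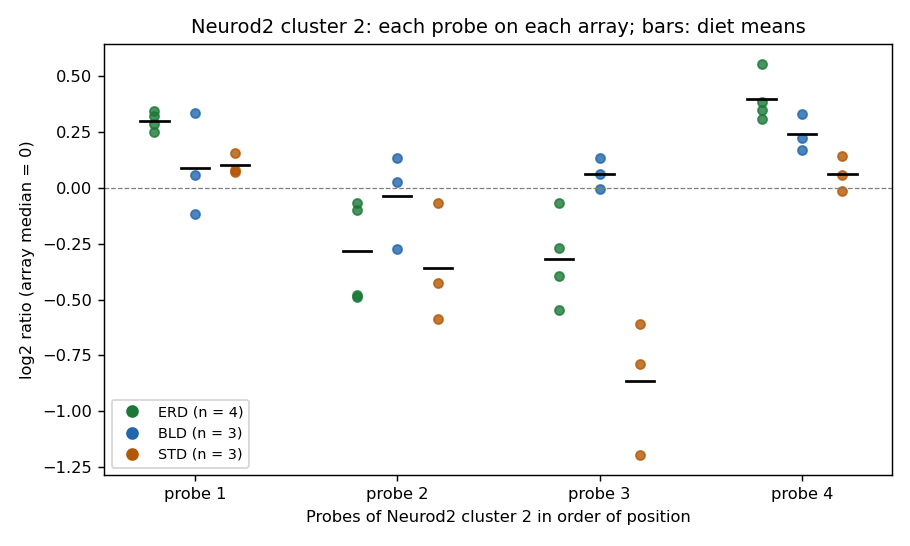
Log2 ratio (array median = 0) of the 4 probes of Neurod2 cluster 2 in order of position, with 1 point per array coloured by diet and a bar at each diet mean. The third probe has STD arrays from -1.20 to -0.61, below all ERD and BLD arrays, while the second overlaps between the diets.

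Across the alternatives of processing the Neurod2 cluster 2 differences kept their sign against STD but not their size. In ERD minus STD the value ran from 0.20, with only probes well above background on every array, to 0.37 with normexp correction, and from 0.24 to 0.32 when 1 array was left out. In BLD minus STD it ran from 0.083 to 0.43, and from 0.30 to 0.40 when 1 array was left out.

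**Figure D5:**
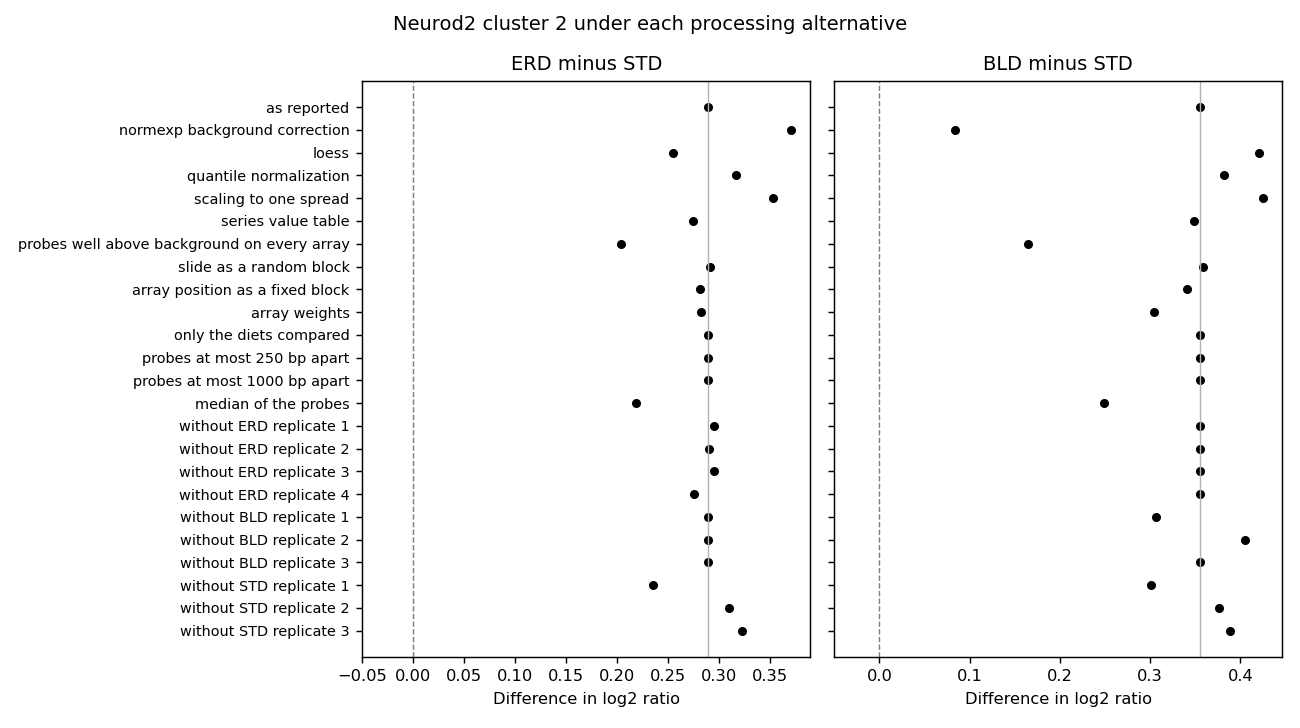
Difference in log2 ratio at Neurod2 cluster 2 for ERD minus STD and BLD minus STD as reported and under each alternative, 1 point each, with the reported value as a grey line and 0 dashed. All points are above 0, from 0.20 to 0.37 in the first and from 0.083 (normexp) to 0.43 in the second.

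At the other loci the probe with the lowest p over the 3 pairwise comparisons was also looked at for its signal. A probe picked in this way is likely to have diets without overlap, and 16.4% of all probes had none between ERD and STD. At Pax6 it was chr2:105516122-105516181 in cluster 4, with 2.25, 1.19, 0.65 and 2.27 in ERD, 1.54, 1.57 and 0.046 in BLD, and -0.065, 0.19 and 0.093 in STD. All ERD arrays were above all STD arrays, with a difference of 1.52 ± 0.44 (SE; adjusted p 0.176), but the probe was well above background on only 5 arrays, 1 in ERD, 1 in BLD and 3 in STD. At Tbr1 it was chr2:61643903-61643948 in cluster 1, with -0.59, -0.48, -1.18 and -0.47 in ERD, -0.24, 0.047 and -0.23 in BLD, and 0.22, 0.10 and 0.062 in STD. Here ERD was below both other diets on every array, with a difference from STD of -0.81 ± 0.21 (SE; adjusted p 0.153), and 9 arrays were well above background. The mean of its cluster differed the other way, by 0.11 ± 0.11 (SE; adjusted p 0.635). At Lhx2 it was chr2:38204034-38204078 in cluster 2, with 0.12, 0.31, 0.26 and 0.34 in ERD, -0.23, 0.42 and -0.50 in BLD, and -0.82 and -0.48 in STD. The spot of STD replicate 2 was an outlier and was left out, the only such spot among the members, and the difference of 0.90 ± 0.26 (SE; adjusted p 0.177) rests on 2 STD arrays. At Neurod1 it was chr2:79293970-79294029 in cluster 1, not well above background on any array, with 1.13 ± 0.35 (SE; adjusted p 0.464) between BLD and STD and -0.34 with normexp correction. With normexp correction the ERD minus STD differences were 0.68 at the Pax6 probe, -0.13 at the Tbr1 probe and 1.43 at the Lhx2 probe.

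By Pearson's r over the 10 arrays, the clusters elsewhere most like each locus mean were sought among 13818 clusters. For Tbr1 these were chr11:33022806-33023352 and chr6:134819841-134820257, both with r = 0.97, and for Lhx2 chr4:41444417-41446514 and chr10:79281731-79282307, also both with 0.97. For Pax6 they were chr5:52504280-52507552 and chr6:126689229-126690515, both with 0.96, and for Neurod1 chr9:99769081-99770199 with 0.95 and chr2:139996131-139996783 with 0.93. Neurod2 had the lowest values, 0.92 at chr3:30754908-30755366 and 0.89 at chr17:72131880-72132488. All points share the arrays, their widths and their backgrounds, so these are descriptions of the highest of many values.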

How the data were processed

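Immunoprecipitated (Cy5) and input (Cy3) DNA of left hemibrain was hybridised to 10 Agilent 2-colour arrays of mouse CpG islands, with no dye swap. Spots were read by Agilent Feature Extraction 10.7.3.1 on mm9 positions, per the file headers, whereas version 9.0 stands in the submitters' processing notes. Per the file headers the processed intensity had its background removed and its dyes balanced linearly. The deposited series value table holds the log10 ratio of the scanner files to within 0.00498 and served as an alternative.

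From these files the log2 ratio of processed Cy5 over Cy3 was taken per probe, outlier spots were left out, saturated spots were kept, and each array was centred on its median. Clusters were the means of at least 3 probes with starts at most 500 bp apart. All 10 arrays entered each fit (lmFit, then eBayes, of limma 3.58.1 under R 4.3.3), across all 13835 clusters or 88737 probes, with p-values adjusted by Benjamini-Hochberg and called under 0.05. The adjusted p-values of the text come from these fits. The fit on clusters was also run on simulated data with independent values and no effect of slide or array width. That check therefore does not extend to the shared slides and unequal widths of these arrays. Slide was tried as a random block, the array position on the slide as a fixed block, and normexp (offset 50 on the median signals), loess, quantile and scale normalization, a signal filter, array weights, other clusters and each array left out as further alternatives. The number of arrays limits the precision. The member probes were 45 to 60 nucleotides long. No gene or sequence is paired with a probe in the files used, so loci are named by their windows and a list of other neurogenic genes was not analysed here. Per locus the text names the cluster with the most probes, those with the highest and lowest mean, and the cluster and probe with the lowest p. Members, lists and tests were chosen with earlier results of these data known.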

Additional observations from a re-analysis of the deposited data

Results flagged for a closer look

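Within the 4 ERD arrays, 1 array lay far from the other 3 in 3 of the 22 values checked (17 clusters and 5 locus means), with a gap to the nearest array that took up most of the range. Chance alone marks about 1 in 20 such groups, but the 22 values are not independent, since the locus means share probes with the clusters. The share over all clusters of the array was not taken, so no excess is read from this count. Pax6 cluster 5 was 1.01 in ERD replicate 2, while the other ERD arrays lay between 0.16 and 0.20. Lhx2 cluster 1 was 0.38 in ERD replicate 1, while the others lay between -0.14 and -0.11. The mean of the Neurod1 locus was 0.042 in ERD replicate 3, below the others at 0.12 to 0.14. The diets of 3 arrays were not checked in this way.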

How the results depend on the processing

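No alternative brought a cluster or probe of the 5 loci past an adjusted p of 0.05. Of 538 recomputed values for the 25 named cluster and probe results, 525 kept their direction and 13 turned it, none of them when 1 array was left out. Normexp background correction accounted for 11 of the 13. With it, Pax6 cluster 3 went to -0.017 in ERD minus STD, -0.033 in BLD minus STD, 0.016 in ERD minus BLD and -0.0027 in the trend. Neurod1 cluster 2 went to -0.39 in BLD minus STD and 0.034 in ERD minus BLD, Tbr1 cluster 1 to -0.014 in BLD minus STD, Lhx2 cluster 4 to 0.0060 and Neurod2 cluster 2 to 0.29 in ERD minus BLD. The Neurod1 and Neurod2 probes named for BLD minus STD went to -0.34 and -0.035. Neurod2 cluster 2 in ERD minus BLD was 0.040 with only probes well above background on every array, and the trend of Neurod1 cluster 1 was -0.0015 with the median of the probes. The cause was not tested.

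Counts at an unadjusted p of 0.05 moved more, and each is given here with the share of all clusters or probes that passed under the same alternative. Cluster counts are out of 17, except out of 16 with a gap of 250 bp and out of 9 with the signal filter. For clusters, ERD minus STD had 1 of 17 (15.7% of all), 4 with normexp correction (8.72%), and 2 with quantile normalization (14.6%), scaling to one spread (13.6%), array position as a block (14.7%) or a gap of 250 bp (16.0%). BLD minus STD had 2 (11.2%), 1 with loess (10.5%) or the median of the probes (9.92%), 0 with the signal filter (11.2%), 4 with array position as a block (10.8%) and 5 with array weights (18.7%). ERD minus BLD had 0 (10.2%), and 1 with the signal filter (11.1%), array weights (15.0%) or a gap of 250 bp (10.3%). The trend had 1 (15.0%), 2 with normexp correction (8.98%), quantile normalization (12.8%), scaling (11.7%), array position (13.7%) or a gap of 250 bp (15.3%), and 0 with loess (15.8%), the signal filter (17.04%) or the median of the probes (15.3%). For probes, ERD minus STD had 16 of 108 (15.0% of all), 9 of the 58 left by the signal filter (16.4%), 10 with slide as a random block (12.3%) and 8 with array position (13.4%). BLD minus STD had 12 (10.5%), 7 with normexp correction (5.03%) and 4 of 58 with the signal filter (9.15%). ERD minus BLD had 9 (11.7%), 0 with normexp correction (0.147%), 4 with scaling (8.04%) and 17 with array weights (15.6%). The trend had 11 (14.6%), and 17 with normexp correction (10.5%), scaling (14.1%) or array weights (17.4%).

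Without 1 array at a time, the cluster counts ran from 1 to 3 in ERD minus STD (8.62% to 16.2% of all clusters), 1 to 3 in BLD minus STD (4.44% to 18.7%), 0 to 2 in ERD minus BLD (6.52% to 12.5%) and 0 to 3 in the trend (8.46% to 17.04%). The probe counts ran in the same order from 9 to 15 (9.74% to 16.1% of all probes), 6 to 22 (4.14% to 17.6%), 4 to 13 (7.02% to 14.9%) and 6 to 17 (9.58% to 17.1%). With the signal filter only 9 of the 17 clusters had 3 probes left. No paired analysis was possible because the labels give no replicate numbers, which were assigned in accession order, and most slides hold 1 diet.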
